A study of Mus musculus with 8 samples.

Results

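The genes described here encode the machinery of mitosis: the kinase CDK1 with its cyclins and activating phosphatases, the polo-like, NEK and Aurora kinases, the spindle checkpoint, the centromere and outer kinetochore, the proteins that start anaphase, spindle microtubule proteins, and the condensin complex with its chromosomal partners. The set was given as 40 gene symbols. No measured value set its membership by rule, but earlier results of these data were known when the genes were chosen. Of these, 39 were measured by a probe set with 1 gene symbol, out of 18193 genes in all, and Ccnb1 was not analysed here. Each gene is given by its brightest probe set, and 27 of the 39 genes have more than 1 probe set.

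Mouse embryonic stem cells (ESCs) were cultured on gelatine without feeders or serum in 2i medium, which holds LIF, the MEK inhibitor PD0325901 (1 μM) and the GSK3 inhibitor CHIR99021 (3 μM). All groups shared this medium, which also held β-mercaptoethanol. The DMSO group received the solvent for 60 h (3 arrays), the MYCi group received 64 μM of 10058-F4, a small molecule that disturbs the pairing of MYC with MAX, for 60 h (2 arrays), and the Resc group received the same inhibitor for 60 h and was then kept for 48 h without it (3 arrays). No DMSO array matches the later time of the Resc arrays. The labels name no strain, line or genotype and do not say whether replicates were separate cultures, so that each p-value is set against array-to-array spread that can be purely technical. With 2 or 3 arrays a group, precision was limited by their number.

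Entry into mitosis is driven by CDK1 bound to B-type cyclins. Aurora and polo-like kinases then build the spindle, condensin and topoisomerase II compact the chromosomes, and the kinetochore couples them to microtubules under the watch of the spindle checkpoint. Anaphase begins when the anaphase-promoting complex with CDC20 marks cyclin B and securin for destruction. Transcripts of most of these proteins accumulate in G2 and mitosis, so that in bulk RNA a smaller share of cells in these phases and less RNA per cell cannot be told apart. Naive ESCs divide fast, and the title of the series names its question, whether such cells without MYC come to resemble the paused embryo of diapause.

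Many mitotic genes are known to carry CCAAT boxes, bound by NF-Y, and a cell cycle genes homology region (CHR), bound by the MuvB complexes, close to their start. Of the 39 measured genes, 32 were found in a RefSeq table of promoters (GRCm38.p6), each window running from 250 bases before to 50 bases after an annotated start. The letters TTTGAA, the CHR core, were searched on both strands together with CCAAT and with CACGTG, the E-box that MYC and MAX bind. TTTGAA stood in 23 of the 32 genes (71.9%), against 20.2% of the 27025 genes of the table. CCAAT stood in 26 (81.2%, against 41.1%), and at 2 or more places in 18 (56.2%, against 13.3%). Both stood in the same window in 22 (68.8%, against 7.97%). CACGTG stood in 2, Ttk and Espl1 (6.25%, against 8.09%). Among the 14452 genes of the table that were tested on the arrays, TTTGAA stood in 15.7% and CCAAT in 42.0%. CCAAT at 2 or more places stood in 14.9% of these, both motifs in 6.21% and CACGTG in 10.2%. A match is a description of letters and not a site shown to be bound.

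The 250 bases before the start are given for the 3 genes with the largest falls that hold TTTGAA before the start, Ccnb2 (chr9:70421555-70421804, minus strand), Ube2c (chr2:164769679-164769928, plus strand) and Top2a (chr11:99024190-99024439, minus strand). They are set beside the gene with the largest fall whose window holds none of the 3 motifs, Birc5 (chr11:117848987-117849236, plus strand). Each is written 5′ to 3′ on the strand of the gene, and capitals mark the CHR core and CCAAT boxes on either strand, which touch or overlap in places.
Ccnb2: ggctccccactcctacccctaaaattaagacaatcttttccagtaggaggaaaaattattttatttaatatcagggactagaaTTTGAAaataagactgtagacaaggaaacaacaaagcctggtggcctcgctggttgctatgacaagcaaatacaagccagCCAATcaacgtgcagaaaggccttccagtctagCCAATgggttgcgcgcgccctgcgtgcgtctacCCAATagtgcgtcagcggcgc
Ube2c: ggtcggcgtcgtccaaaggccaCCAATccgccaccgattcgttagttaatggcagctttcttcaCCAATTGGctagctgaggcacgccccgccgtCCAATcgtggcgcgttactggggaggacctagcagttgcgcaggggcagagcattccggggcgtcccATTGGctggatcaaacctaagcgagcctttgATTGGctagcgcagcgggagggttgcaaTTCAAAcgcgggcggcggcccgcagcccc
Top2a: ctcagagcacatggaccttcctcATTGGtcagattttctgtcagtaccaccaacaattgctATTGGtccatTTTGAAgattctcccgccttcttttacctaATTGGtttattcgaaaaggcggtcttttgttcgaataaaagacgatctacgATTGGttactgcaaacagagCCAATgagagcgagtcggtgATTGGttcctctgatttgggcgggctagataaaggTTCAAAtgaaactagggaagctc
Birc5: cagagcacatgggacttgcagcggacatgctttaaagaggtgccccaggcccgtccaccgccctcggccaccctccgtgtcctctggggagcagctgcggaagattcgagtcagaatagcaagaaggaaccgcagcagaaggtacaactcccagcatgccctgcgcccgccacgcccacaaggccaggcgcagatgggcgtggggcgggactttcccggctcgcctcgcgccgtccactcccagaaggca
In Ccnb2 the first bases of CCAAT lie at positions -87, -54 and -21 from the start, and TTTGAA lies at -167 and again at 5, just after the start. In Ube2c CCAAT or its complement begins at 6 places and the CHR core at -29. In Top2a there are 6 such places and CHR cores at -179 and -23. TTTGAA began within 50 bases of the start, on either side, in 21 of the 32 genes (65.6%, against 5.72% of the table and 4.09% of its genes tested on the arrays).

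Before the results, the cells and arrays were checked. Of 8 ESC markers, 2 rose and 3 fell with the inhibitor, while Pou5f1 (12.16 ± 0.060 with DMSO and 12.11 ± 0.0011 with the inhibitor, log2 level ± SD, n = 3 and 2) and Nanog (11.90 ± 0.035 and 11.80 ± 0.018) stayed among the bright genes. Changes of the 8 ranged from -0.38 to 0.69 (log2). Their summed level (linear scale) was 29147 to 29346 on the DMSO arrays, 26769 to 27275 on the MYCi arrays and 28976 to 30288 on the Resc arrays. Of 8 fibroblast and feeder markers 0 rose and 1 fell, of 8 primitive endoderm markers 0 and 2, of 5 neural markers 0 and 2, and of 5 mesoderm markers 0 and 1. At an unadjusted p the rises were 0, 1, 0 and 0. Over all genes 19.2% rose and 22.3% fell with the inhibitor at an adjusted p, and 3896 of 18193 rose at an unadjusted p. Of 10 trophectoderm markers 6 rose and 0 fell (0 fell at an unadjusted p too), and their summed level (linear scale) was 993 to 1101 on the DMSO arrays, 3739 to 3796 on the MYCi arrays and 712 to 803 on the Resc arrays. The rises were those of Krt8, Krt18, Krt19, Krt7, Eomes and Gata3, while the defining factors Cdx2 and Elf5 did not pass and Elf5 (mean 2.89 with DMSO and 2.97 with the inhibitor) lay near the 2.15 to 2.95 of bacterial control probe sets. RNA integrity was read from Gapdh, whose 3′ minus 5′ probe set difference (log2) was -0.108 to -0.130 on the DMSO arrays, -0.148 and -0.216 on the MYCi arrays and -0.117 to -0.133 on the Resc arrays. The same difference of Actb overlapped between groups, at 0.251 to 0.269 with DMSO, 0.254 and 0.288 with the inhibitor and 0.248 to 0.278 after release. The part of the trophectoderm markers and of the Gapdh values in the results on mitotic genes was not tested.

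After 60 h with the inhibitor nearly the whole mitotic set was lower than with DMSO. Of 39 genes 38 fell and 0 rose in limma at an adjusted p of 0.05, against 22.3% of all 18193 genes that fell and 19.2% that rose. At an unadjusted p 38 fell and 0 rose, against 4909 and 3896 of all genes. The median log2 change was -0.84, against -0.06 over all genes, and 14 of the 39 fell at least 2-fold, against 1.65% of all genes. In 38 genes both MYCi arrays lay below all 3 DMSO arrays, against 35.0% of all genes. Of the 39 genes, 29 stood among the 909 lowest changes on the array, the lowest 5%. Within a group the arrays lay close together, with a median SD over the 39 genes of 0.050 for DMSO, 0.048 for MYCi and 0.048 for Resc.

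**Figure D1:**
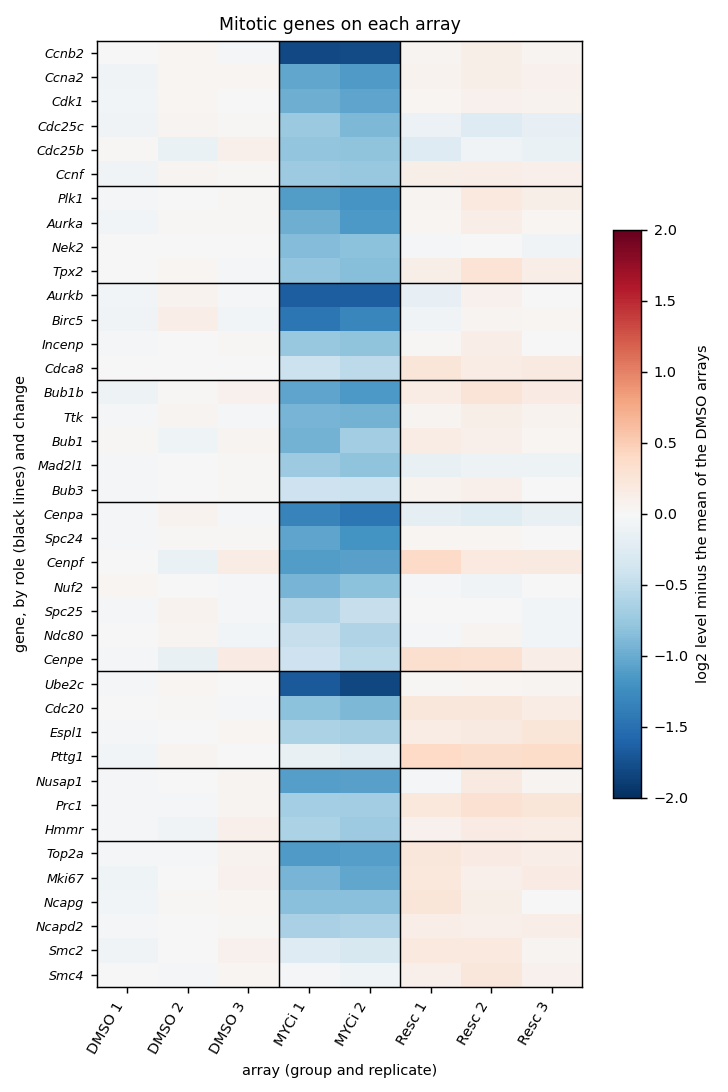
Each row is a mitotic gene and each column an array, and the colour is the log2 level minus the mean of the 3 DMSO arrays (blue lower, red higher, from -2 to 2); black lines part the roles and the groups. Both MYCi columns are blue in nearly every row, palest in Smc4 and Pttg1, and the Resc columns are near white or pale red, except pale blue rows such as Cenpa and Cdc25c.

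Among CDK1 and its partners, the cyclin B2 gene Ccnb2 fell most of all 39 genes. Its log2 level was 10.09, 10.13 and 10.05 on the DMSO arrays, 8.28 and 8.30 on the MYCi arrays, and 10.15, 10.21 and 10.14 on the Resc arrays. The MYCi arrays lay far below both other groups, and all Resc arrays lay slightly above the DMSO arrays. The fall was 3.48-fold (log2 change -1.80 ± 0.060, moderated standard error; limma adjusted p = 3.69e-08). Cdk1, the kinase itself, stood at 10.25, 10.34 and 10.30 with DMSO, 9.31 and 9.24 with the inhibitor, and 10.33, 10.38 and 10.36 after release. It fell 2.03-fold (-1.02 ± 0.062), close to Ccna2 (-1.09 ± 0.065), which encodes cyclin A2. Ccnf, encoding the cyclin F subunit of an SCF ubiquitin ligase, fell by less (-0.74 ± 0.063). The phosphatase genes Cdc25b (-0.80 ± 0.085) and Cdc25c (-0.82 ± 0.076), whose products remove the inhibitory phosphates of CDK1, fell from lower levels on the array.

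The other kinases of mitotic entry fell together. Plk1, the polo-like kinase of centrosome maturation and cytokinesis, had log2 levels of 9.17, 9.19 and 9.21 with DMSO, 8.08 and 8.01 with the inhibitor, and 9.24, 9.38 and 9.30 after release. The MYCi values stood apart from all others, and the Resc values lay just above DMSO. Plk1 fell 2.21-fold (-1.14 ± 0.065) and Aurka, the Aurora kinase of spindle poles, 2.09-fold (-1.06 ± 0.075). Tpx2, the activator of Aurora A on microtubules (-0.82 ± 0.071), and the centrosomal kinase gene Nek2 (-0.85 ± 0.059) fell by less.

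The chromosomal passenger complex holds Aurora B with INCENP, survivin and borealin, and corrects wrong attachments at the centromere. Its genes fell by unequal amounts. The kinase gene Aurkb stood at 8.58, 8.70 and 8.61 with DMSO, 6.98 and 6.99 with the inhibitor, and 8.46, 8.72 and 8.63 after release. The MYCi arrays did not overlap the others, while DMSO and Resc arrays were mixed. Aurkb fell 3.14-fold (-1.65 ± 0.082; limma adjusted p = 3.42e-07), and both of its probe sets gave a similar value (-1.65 and -1.71). Birc5, which encodes survivin, fell 2.59-fold (-1.37 ± 0.085). Its promoter window, of which the part before the start is printed above, holds none of the 3 motifs as exact letters. The scaffold gene Incenp (-0.78 ± 0.064) and the borealin gene Cdca8 (-0.48 ± 0.063) fell by less, Cdca8 by 1.39-fold.

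In the spindle checkpoint, which holds back anaphase until all kinetochores are attached, 5 of 5 genes fell. Bub1b, encoding BUBR1, fell 2.15-fold (-1.11 ± 0.076) and the kinase gene Ttk, encoding MPS1, 1.92-fold (-0.94 ± 0.060). Mad2l1, encoding MAD2 (-0.76 ± 0.063), and Bub1 (-0.82 ± 0.083) lay between. The kept probe set of Bub1 showed less than its other one (-1.73 ± 0.071, tested among 34945 probe sets). Bub3, whose product also works outside the checkpoint, had log2 levels of 10.48, 10.54 and 10.54 with DMSO, 10.10 and 10.10 with the inhibitor, and 10.59, 10.62 and 10.53 after release. It fell only 1.34-fold (-0.42 ± 0.061; limma adjusted p = 0.000334), the smallest change of this group.

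Centromere and outer kinetochore genes covered a wide range. Cenpa, the histone H3 variant that marks the centromere, stood at 10.43, 10.52 and 10.41 with DMSO, 9.11 and 9.00 with the inhibitor, and 10.25, 10.21 and 10.31 after release. All 3 groups were separate, with Resc between the others and near DMSO. Cenpa fell 2.63-fold (-1.40 ± 0.069). The 4 subunits of the NDC80 complex, the microtubule binder of the kinetochore, did not fall by the same amount: Spc24 by -1.12 ± 0.065, Nuf2 by -0.88 ± 0.064, Spc25 by -0.53 ± 0.071 and Ndc80 by -0.53 ± 0.071. No test between these subunits was run. Cenpf, a large kinetochore and matrix protein, fell 2.15-fold (-1.10 ± 0.094) and the kinesin gene Cenpe 1.39-fold (-0.47 ± 0.10; limma adjusted p = 0.00384).

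The genes of anaphase onset held both the second largest and the second smallest change of the set. Ube2c, the ubiquitin-conjugating enzyme that works with the anaphase-promoting complex, stood at 11.53, 11.60 and 11.55 with DMSO, 9.87 and 9.74 with the inhibitor, and 11.57, 11.60 and 11.62 after release. The MYCi arrays lay clear of the rest, and the other 6 overlapped. Ube2c fell 3.37-fold (-1.75 ± 0.065; limma adjusted p = 6.69e-08). Cdc20, the activator of the complex, fell 1.81-fold (-0.86 ± 0.062) and Espl1, encoding separase, which cuts cohesin, 1.57-fold (-0.65 ± 0.062). Pttg1 encodes securin, the inhibitor of separase. Its log2 level was 11.36, 11.47 and 11.41 with DMSO, 11.27 and 11.20 with the inhibitor, and 11.82, 11.76 and 11.78 after release. The MYCi arrays were lowest and the Resc arrays highest, without overlap. The fall in Pttg1 was only 1.13-fold (-0.18 ± 0.063; limma adjusted p = 0.0422), and this call was lost under 13 of 18 alternative settings, among them without each array other than DMSO replicate 1 (adjusted p over all alternatives from 0.00106 to 0.208). Its 3 probe sets changed by -0.18, -0.43 and 0.24, of which only the second passed when probe sets were tested singly.

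Of the spindle proteins, Nusap1, which bundles microtubules near chromosomes, fell 2.13-fold (-1.09 ± 0.073). Prc1, the crosslinker of the central spindle, stood at 9.26, 9.25 and 9.34 with DMSO, 8.61 and 8.59 with the inhibitor, and 9.50, 9.59 and 9.53 after release. All 3 groups were separate, with Resc on top. Prc1 (-0.68 ± 0.063) and Hmmr, the hyaluronan-mediated motility receptor gene (-0.68 ± 0.071), both fell 1.61-fold.

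Of 6 genes of condensin, topoisomerase and the chromosome surface 5 fell. Top2a, encoding topoisomerase IIα, had log2 levels of 11.40, 11.38 and 11.49 with DMSO, 10.29 and 10.32 with the inhibitor, and 11.65, 11.59 and 11.55 after release. The groups did not overlap, and the fall was 2.17-fold (-1.12 ± 0.065). Mki67, encoding the Ki-67 protein of the chromosome surface and a common proliferation marker, fell 1.97-fold (-0.98 ± 0.074). The condensin I subunit genes Ncapg (-0.84 ± 0.079) and Ncapd2 (-0.63 ± 0.059) fell too. Smc2 and Smc4 encode the ATPase core shared by both condensins. On the kept probe sets Smc2 changed by -0.29 ± 0.074 (limma adjusted p = 0.0108), a call lost without MYCi replicate 2 (0.0753). Smc4 stood at 10.65, 10.60 and 10.68 with DMSO and 10.61 and 10.55 with the inhibitor. These ranges overlapped, and the difference of -0.06 ± 0.068 did not pass (limma adjusted p = 0.498), which does not show that Smc4 was unaffected.

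The small values of the SMC genes came from their brightest probe sets. The other probe sets of Smc2 changed by -1.15 ± 0.14, -0.98 ± 0.063 and -1.21 ± 0.087, and a dim one, at a mean log2 level of 4.50, by 0.38 ± 0.097. Those of Smc4 changed by -0.55 ± 0.10 and -0.31 ± 0.068, and both passed (adjusted p = 0.00197 and 0.00501 over probe sets). With the mean of its probe sets Smc4 passed as lower. Over all 90 probe sets of the 39 genes, 71 fell and 1 rose, the dim one of Smc2. Of the 69 with a mean log2 level of at least 6, 65 fell and 0 rose, with a median of -0.85, against a median of -0.18 in the 21 dimmer ones. The level of 6 was a mark for description only. Shares over all probe sets of the array were not counted, so these counts have no background beside them. Of the 27 genes with several probe sets, 13 fell in every one and 14 did not. Judged by the probe set with the change nearest to 0, 26 of the 39 genes were called lower, and the calls lost were those of Aurka, Tpx2, Nek2, Incenp, Bub3, Ttk, Cenpa, Spc25, Pttg1, Hmmr, Ncapd2 and Top2a. How many of all genes would be called lower in this way was not counted.

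**Figure D2:**
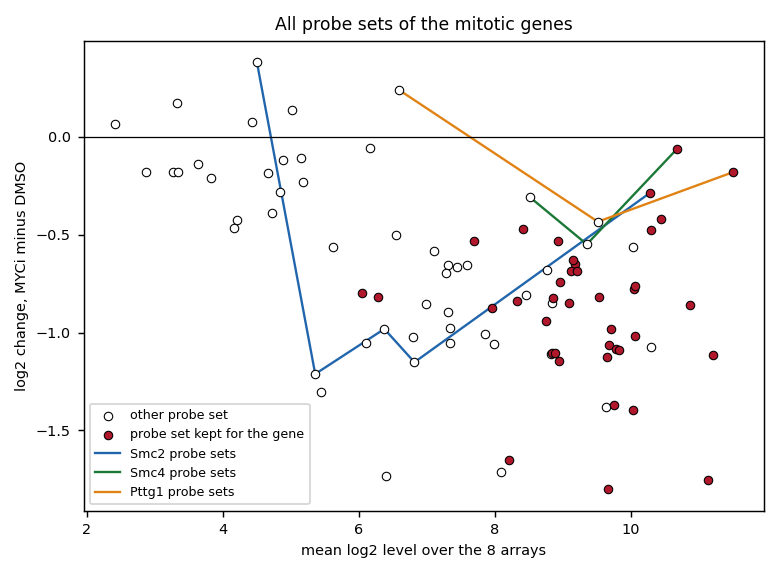
Each point is 1 of the 90 probe sets of the mitotic genes, with its mean log2 level over the 8 arrays on the horizontal axis and its log2 change (MYCi minus DMSO) on the vertical axis; filled points are the probe sets kept, and lines join the probe sets of Smc2, Smc4 and Pttg1. The kept probe sets of these 3 genes lie near 0, while other probe sets of Smc2 reach -1.21.

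With the inhibitor withdrawn for 48 h, the mitotic genes were higher again. This comparison shares the MYCi arrays with the one above, so it is no independent check of the fall. Of 39 genes 39 rose and 0 fell against the MYCi arrays, against 22.7% of all genes that rose and 19.2% that fell. At an unadjusted p in limma 39 rose and 0 fell, against 5010 and 3911 of all genes. The median was 0.94, against 0.06 over all genes, and 18 of the 39 rose at least 2-fold (1.91% of all genes). In all 39 every Resc array lay above both MYCi arrays (36.2% of all genes). The largest rises were those of Ccnb2 (3.67-fold), Ube2c (3.46-fold), Aurkb (3.08-fold), Birc5 (2.61-fold) and Cenpf (2.56-fold). The smallest was that of Smc4 (0.20 ± 0.068; limma adjusted p = 0.0353), a call lost under 7 of 18 alternatives, among them without MYCi replicate 1, without MYCi replicate 2 and without Resc replicate 2 (adjusted p over all alternatives from 0.000305 to 0.171).

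**Figure D3:**
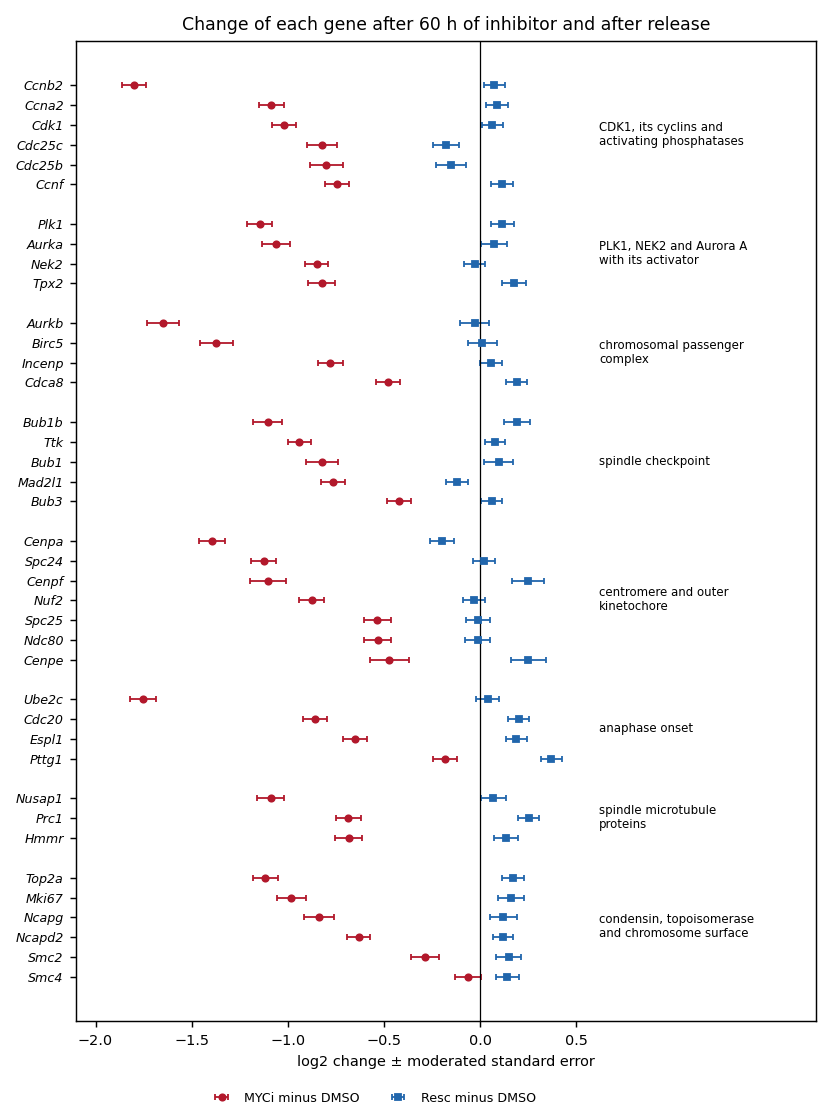
Points are log2 changes of each gene with moderated standard errors, red circles for MYCi minus DMSO (2 and 3 arrays) and blue squares for Resc minus DMSO (3 and 3 arrays), grouped by role. Red points run from -1.80 (Ccnb2) to -0.06 (Smc4), and blue points lie between -0.20 (Cenpa) and 0.37 (Pttg1).

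Set against DMSO, the released cells held these transcripts at levels that differed by -0.20 to 0.37 on the log2 scale. The 2 genes that stood above made up 5.13% of the 39, close to the 4.66% of all genes. This comparison shares the DMSO arrays with the first. Of 39 genes 2 rose and 0 fell in limma, against 4.66% and 4.01% of all genes, and the median was 0.09, against 0.00 over all genes. At an unadjusted p 14 rose and 2 fell, against 2114 and 2000 of the 18193 genes. Pttg1 rose 1.29-fold (0.37 ± 0.056; limma adjusted p = 0.00332) and Prc1 1.19-fold (0.25 ± 0.056; limma adjusted p = 0.0229). The call of Pttg1 held in 17 of 18 alternatives. That of Prc1 was lost in 6, among them without DMSO replicate 1, DMSO replicate 2, Resc replicate 2 or Resc replicate 3, and with the replicate number as a block, when the count of genes that rose was 1 (adjusted p over all alternatives from 0.000574 to 0.0877). Both probe sets of Prc1 passed singly. For Pttg1 the probe sets that changed by 0.37 and 0.49 passed. Its other one, at a mean log2 level of 9.52, did not (0.19 ± 0.083; limma adjusted p = 0.231 over probe sets), and the call of Pttg1 was lost with it.

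Over all 39 genes, the 2 that passed included, the difference was positive in 30 (76.9%), against 50.5% of all genes, and among the 37 that did not pass it was positive in 28. In 18 of the 39 all Resc arrays lay above all DMSO arrays, against 14.6% of all genes, and in 3 all lay below, against 14.0%. Among the first were Cdc20 (0.20 ± 0.055; limma adjusted p = 0.0526), which stood at 11.00, 11.02 and 10.98 with DMSO and 11.23, 11.23 and 11.15 after release, and Espl1 (0.19 ± 0.055; 0.0674) and Cdca8 (0.19 ± 0.056; 0.0696). The 3 below were Cenpa (-0.20 ± 0.061; 0.0851), Cdc25c (-0.18 ± 0.068; 0.156) and Mad2l1 (-0.12 ± 0.056; 0.245). How many passed differed between settings: with a variance trend and robust fitting together 13 rose and Cenpa fell, without genes of low level 5 rose and Cenpa fell, and with the mean of probe sets 6 rose. The counts over all genes differed too, with 847 that rose and 729 that fell in the main fit. With a variance trend and robust fitting these were 1382 and 1259. Without genes of low level they were 1091 and 995, and with the mean of probe sets 814 and 763.

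**Figure D4:**
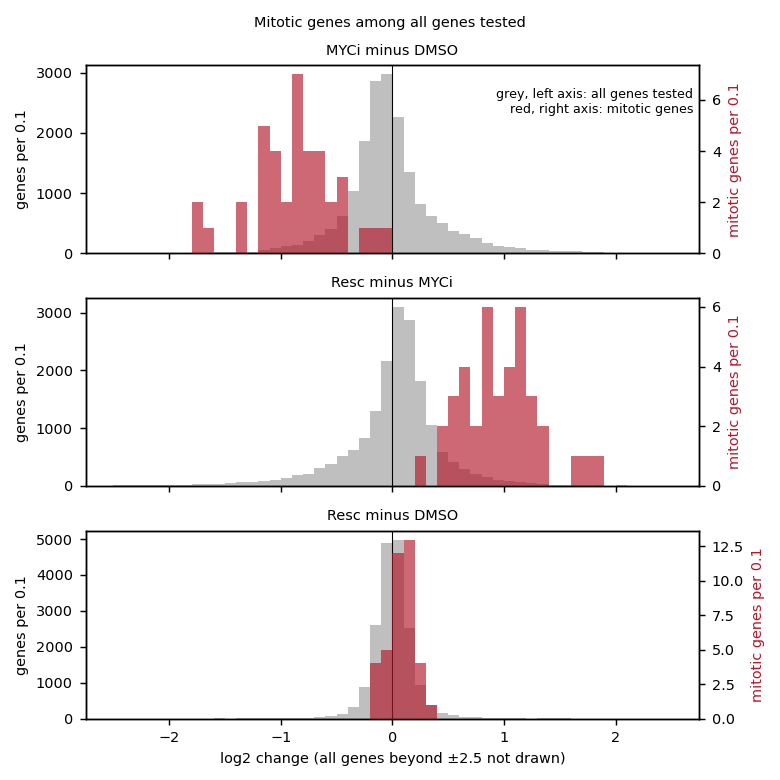
Histograms of log2 changes in bins of 0.1, in grey for all 18193 genes (left axis) and in red for the 39 mitotic genes (right axis, another scale), for the 3 comparisons. The red bars lie left of most grey ones with the inhibitor (median -0.84 against -0.06), right of them on release (0.94 against 0.06), and over the grey peak between Resc and DMSO (0.09 against 0.00).

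Among the 32 genes with a promoter window, the median change was -0.86 in the 23 with TTTGAA and -0.82 in the 9 without, and -0.84 in the 26 with CCAAT and -0.82 in the 6 without. The 5 genes with none of the 3 motifs ran from -1.37 (Birc5) to -0.18 (Pttg1), and Nusap1, Nuf2 and Mad2l1 lay between. Over all 14452 genes tested that have a window, the mitotic genes included, 23.9% of those with TTTGAA fell, against 22.7% of those without. For CCAAT the shares were 25.3% and 21.1%. Of the 897 with TTTGAA and CCAAT in the same window 29.4% fell, against 21.2% of the 7182 with neither. These shares are descriptions, with no test.

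Related genes outside the set were counted from 6 lists of 125 measured genes, chosen by function. Together 77 fell (61.6%, against 22.3% of all genes) and 8 rose (6.4%, against 19.2%) with the inhibitor, with a median of -0.34. On release 76 rose (60.8%, against 22.7%) and 9 fell (7.2%, against 19.2%). Between Resc and DMSO 7 rose (5.6%) and 5 fell (4.0%), close to the 4.66% and 4.01% of all genes. The shares of all genes at an adjusted p hold beside each list below. At an unadjusted p 4909 of the 18193 genes fell and 3896 rose with the inhibitor. Of 17 genes of the anaphase-promoting complex and its cofactors 10 fell (58.8%) and 2 rose. Fbxo5, which encodes the inhibitor EMI1, fell 2.92-fold (-1.55 ± 0.059), with the small subunit genes Anapc15 (-1.08 ± 0.076), Anapc13 (-0.90 ± 0.066) and Anapc11 (-0.61 ± 0.071). The subunit genes Anapc4 (0.29) and Cdc16 (0.33) rose. Of 34 other kinetochore and checkpoint genes 25 fell (73.5%), with Ska1 (-1.63 ± 0.070), Cenpm (-1.54 ± 0.075), Cenph (-1.19 ± 0.063) and Cenpl (-1.03 ± 0.060) at the smallest p, and 1 rose, Zwint (1.24).

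Of 20 cohesin and other condensin genes 10 fell (50%) and 3 rose (15%). The acetyltransferase gene Esco2 (-1.64 ± 0.077) and Cdca5 (-1.19 ± 0.062), encoding sororin, both act on cohesin in S phase. Ncaph (-0.90 ± 0.068) and Ncapg2 (-0.62 ± 0.073) belong to condensin I and II. The rises were those of Stag1 (0.38), Pds5a (0.32) and Hdac8 (0.44), all partners of cohesin. Of 26 other spindle and cytokinesis genes 18 fell (69.2%) and 0 rose (22 and 0 at an unadjusted p in limma), led by Cdca3 (-1.82 ± 0.072), Racgap1 of the central spindle (-1.07 ± 0.059), Cdca2 (-1.21 ± 0.071) and the augmin gene Haus4 (-0.84 ± 0.065). Of 12 other genes that control CDK1 7 fell (58.3%) and 0 rose (7 and 0 at an unadjusted p in limma), among them Cdc25a (-1.31 ± 0.080), Cks2 (-0.79 ± 0.060), the inhibitory kinase gene Wee1 (-0.72 ± 0.058) and Mastl (-0.52 ± 0.063).

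**Figure D5:**
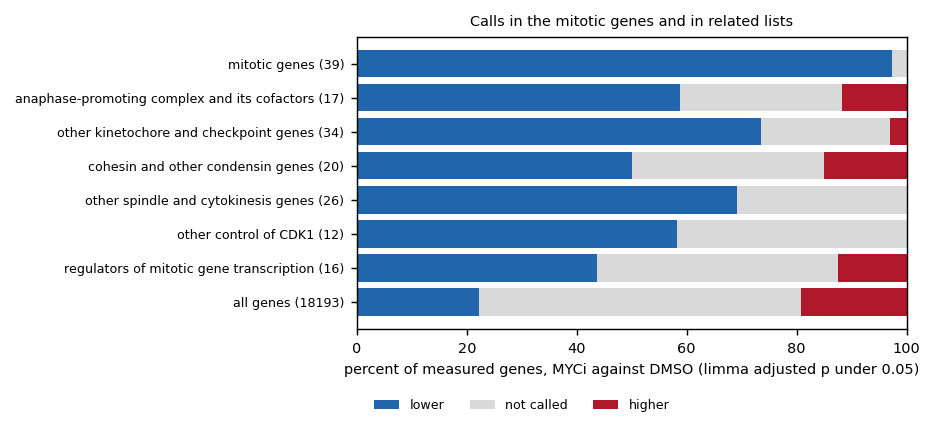
Bars give, for the mitotic genes, 6 related lists and all genes, the percent of measured genes that were lower (blue), higher (red) or not called (grey) in MYCi against DMSO, with the number measured in brackets. Lower genes make up 38 of 39 in the mitotic set and 22.3% of all genes.

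Of 16 regulators of mitotic gene transcription 7 fell (43.8%) and 2 rose (12.5%), against 22.3% and 19.2% of all genes. Foxm1, encoding the forkhead factor of G2 genes, stood at 6.63, 6.77 and 6.84 with DMSO, 6.46 and 6.47 with the inhibitor, and 6.86, 6.77 and 6.74 after release. The MYCi arrays were lowest, and the fall was 1.22-fold (-0.28 ± 0.077; limma adjusted p = 0.0149), although another probe set of Foxm1 changed by -1.23 ± 0.067. Mybl2, encoding B-MYB, differed by 0.14 ± 0.065 (0.121), Lin9 of the MuvB core by -0.10 ± 0.066 (0.274) and the pocket protein gene Rbl1 by -0.06 ± 0.075 (0.557), none past the threshold. The NF-Y subunit gene Nfyb fell 1.93-fold (-0.95 ± 0.059), and Tfdp1 (-0.54 ± 0.062), Tfdp2 (-0.54 ± 0.072) and E2f4 (-0.28 ± 0.085) fell. The rises were those of Lin54 (0.42 ± 0.069), the CHR-binding subunit of MuvB, and Rbl2 (0.55 ± 0.11), encoding the pocket protein p130 of the repressive DREAM complex. Rbl2 lay at a mean log2 level of 4.69.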

How the data were processed

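Total RNA was labelled with biotin as cRNA and hybridised to 8 Affymetrix arrays. The authors deposited log2 expression for each probe set, and RMA, oligo 1.32.0 and limma 3.2.15 are named in the submitters' processing notes. The log2 scale was read from the values (1.69 to 13.76). RMA equalises arrays, so a change shared by most genes is not visible. Of 45101 probe sets, 34945 with 1 gene symbol in the platform annotation gave 18193 genes, each with its brightest probe set and no filter on level. Group means were fitted to all 8 arrays in limma 3.58.1 (R 4.3.3), with two-sided p-values adjusted by Benjamini-Hochberg over all genes and a threshold of 0.05. Python 3.11.15, pandas 2.3.3, numpy 2.4.6 and matplotlib 3.10.9 served for tables and figures. Tested on simulated data for 18193 genes, the fit recovered 67% of changes of 0.5 and 92% of changes of 1 (log2) for MYCi against DMSO. Of its calls there 4.79% were false. Far fewer genes were changed in the simulation than the 7557 called here, so recovery in these data can differ.

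The genes and lists were chosen with earlier results of these data known, so no p is adjusted over a list alone. The text names all measured members, up to 4 genes per related list with the smallest p, and always the regulators Foxm1, Mybl2, Lin9, E2f4, Rbl1 and Rbl2. Genes that rose in a list, other than Lin54 and Rbl2, were named after their values were seen. Promoters were printed by rule. Alternatives were other probe set summaries, leaving out genes under the 30th percentile of level, normalizations, variance models, thresholds, a replicate block and leaving out each array. Proteins were not used here.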

Additional observations from a re-analysis of the deposited data

How the results depend on the processing

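Of 18 alternatives, each gave 36 to 39 genes called for MYCi against DMSO and 38 or 39 for Resc against MYCi, where with every probe set a gene counts once any of its probe sets passes. Judged by the probe set with the change nearest to 0, 26 of 39 genes were called lower and 29 of 39 higher, with 12 and 10 calls lost (Bub3, Cenpa, Incenp, Ncapd2, Nek2, Pttg1, Spc25, Top2a and Tpx2 in both, Aurka, Hmmr and Ttk in the first and Smc4 in the second). The same was not counted over all genes. The median change of the 39 genes was -0.767 with the mean of all probe sets of a gene, -0.565 with the probe set nearest to 0 and -0.885 with median centring for MYCi against DMSO, and 0.839, 0.644 and 0.975 for Resc against MYCi. Without each array in turn it ran from -0.854 to -0.832 and from 0.896 to 0.964. For Resc against DMSO it was 0.0647 with every probe set and 0.0725 to 0.107 without each array. The 2 genes called there became 6 with the mean of probe sets (all higher), 6 without low-level genes (5 higher), 4 with repeated quantile normalization (3 higher, with Cdc20, and Cenpa lower), 14 with a variance trend and robust fitting (13 higher), 1 at an adjusted p of 0.01, 1 with the replicate number as a block, and 1 to 2 without each array. Over all genes, 1576 were called there, against 2641 with a variance trend and robust fitting together, 657 at 0.01 and 1000 to 1344 without each array. The count was 1577 with the mean of probe sets, 2086 without low-level genes and 1705 with repeated quantile normalization. Without each array the counts over all genes were 5931 to 7446 for MYCi against DMSO and 6003 to 7637 for Resc against MYCi. Under the other alternatives they were 5519 to 8565 and 5582 to 8451. Deviations of same-numbered arrays from their group means correlated at -0.056 to 0.014. With 2 or 3 arrays a group, this shows no sign of pairing but cannot exclude it. With the replicate block 6826, 6825 and 1180 genes were called in the 3 comparisons.

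Signs turned in the following cases, none of them past the threshold under the alternative. With every probe set, MYCi against DMSO gave 0.170 for Nek2, 0.0763 for Bub3 and 0.0627 for Cenpa, and Resc against MYCi gave -0.00773 for Tpx2, -0.00647 for Nek2 and -0.0241 for Top2a. Resc against DMSO gave -0.0244 for Bub1, -0.00363 for Bub3, 0.0656 for Cenpa, -0.0416 for Cenpf, -0.0315 for Hmmr and -0.0263 for Ncapg. With the mean of probe sets it gave -0.00282 for Ccna2, 0.0197 for Nek2 and -0.00863 for Incenp. Without 1 array, Resc against DMSO ran on both sides of 0, from -0.0269 to 0.0775 for Birc5, -0.0848 to 0.0425 for Aurkb, -0.0426 to 0.0161 for Ndc80, and -0.0297 to 0.027 for Spc25. With every probe set, medians and single values are those of the probe set nearest to 0. The cause of the other shifts was not tested. Few arrays and dim probe sets limit what small changes these data can show.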

Other observations

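Zwint, which encodes a partner of the kinetochore scaffold KNL1, was the 1 gene among the 34 other kinetochore and checkpoint genes that rose with the inhibitor, by 1.24 on its brightest probe set. It was singled out after its values were seen. Of its 7 probe sets 5 rose, by 0.72 to 1.24, with adjusted p from 1.62e-06 to 3.80e-05 over probe sets, and the other two differed by 0.03 and -0.32 without passing. No other gene of the 125 related genes rose at least 2-fold.

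The probe sets of Foxm1 differed more from each other than its fitted error. They changed by -0.28 ± 0.081, -1.23 ± 0.067, -0.47 ± 0.074 and, at a mean log2 level of 2.28, -0.03 ± 0.10. Both probe sets of Rbl2 rose (0.55 ± 0.11 and 0.27 ± 0.085), at low mean log2 levels of 4.69 and 3.75. Both of Nfyb fell (-0.95 ± 0.065 and -0.65 ± 0.097), and neither of Mybl2 passed (0.14 ± 0.070 and 0.04 ± 0.064).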
